A study of Mus musculus with 4 samples.

Results

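The binding sites of phosphorylated STAT3 (pSTAT3-Y705) in leukemic stem and progenitor cells were compared between imatinib-treated and untreated mice. The cells were Lin-Sca1+cKit+ (LSK) cells sorted from the bone marrow of C57BL/6 mice. CML cells came from untreated leukemic mice, and CML-TKI cells from leukemic mice gavaged with imatinib, an inhibitor of the BCR-ABL kinase, on alternate days. WT cells, from untreated wild-type mice, are used only as a reference. By the study's methods the CML model is the BCR-ABL x SCL-tTA mouse, in which a tetracycline-controlled transactivator under an SCL regulatory element drives BCR-ABL, so the oncogene is on in the SCL-expressing stem and progenitor cells. The labels give neither the age of the animals nor how many were pooled. The label of the treated library gives 200 mg/kg imatinib for 4 weeks, and its treatment protocol 400 mg/kg for 30 days.

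The members are the sites listed for CML-TKI and for CML, with chromosome Y left out and each site counted once per list. They numbered 1510 in CML-TKI and 637 in CML, 2147 of the 2725 sites that the deposited table holds for the series. The paper reports many times more unique sites for each state, so a site absent here may still have been called by the study. Each side was 1 library, so no difference between them has a replicate check and no test was made. The table gives positions and annotations but no read count, score or enrichment, so the depth behind a site is unknown. It also holds no expression values, so the LSK label could not be checked against marker genes. A gene named for a site is the gene with the nearest transcription start site (TSS), which may lie far away. Positions are those of the mouse build mm9.

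STAT3 is a latent cytoplasmic transcription factor. Receptor-bound JAK kinases and several oncogenic tyrosine kinases phosphorylate it at the tyrosine Y705, after which it dimerizes, enters the nucleus and binds DNA at palindromic elements with the core TTCNNNGAA. In blood-forming cells it carries signals of interleukin-6, G-CSF and related cytokines, and its known targets include genes of survival, of the cell cycle and of its own feedback control. In CML, BCR-ABL also drives STAT5 directly, while STAT3 is activated in part through cytokines of the marrow.

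Promoter sequences are shown for 4 genes whose sites are described below. Bcl6, a transcriptional repressor that STAT factors regulate, had a promoter site in both lists. So did Stat3 itself. Mcl1, a BCL2-family gene that protects cells from apoptosis, had one in CML-TKI only, and Ap4e1, a subunit of the AP-4 adaptor of vesicle transport, in CML only. The 250 bases before each RefSeq gene start are printed 5' to 3' on the gene's strand (build GRCm38.p6), with every TTCNNNGAA in capitals. Bcl6 has 2 annotated starts and both are given. The windows were chosen by gene name, not by site position, since the builds differ.
Bcl6 start 1: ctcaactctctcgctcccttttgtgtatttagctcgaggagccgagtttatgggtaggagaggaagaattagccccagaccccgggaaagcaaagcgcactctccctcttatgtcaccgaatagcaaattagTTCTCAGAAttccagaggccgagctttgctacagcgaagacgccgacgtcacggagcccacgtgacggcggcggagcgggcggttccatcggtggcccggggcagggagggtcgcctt
Bcl6 start 2: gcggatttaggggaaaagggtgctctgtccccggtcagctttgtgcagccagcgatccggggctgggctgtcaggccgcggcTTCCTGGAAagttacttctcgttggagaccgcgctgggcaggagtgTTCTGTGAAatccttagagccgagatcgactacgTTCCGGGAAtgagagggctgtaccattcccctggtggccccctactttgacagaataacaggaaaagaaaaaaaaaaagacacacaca
Stat3: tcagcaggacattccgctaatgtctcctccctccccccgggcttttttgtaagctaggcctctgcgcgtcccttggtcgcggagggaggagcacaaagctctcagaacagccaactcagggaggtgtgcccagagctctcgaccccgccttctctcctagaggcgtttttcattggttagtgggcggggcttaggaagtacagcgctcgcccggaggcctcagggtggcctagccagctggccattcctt
Mcl1: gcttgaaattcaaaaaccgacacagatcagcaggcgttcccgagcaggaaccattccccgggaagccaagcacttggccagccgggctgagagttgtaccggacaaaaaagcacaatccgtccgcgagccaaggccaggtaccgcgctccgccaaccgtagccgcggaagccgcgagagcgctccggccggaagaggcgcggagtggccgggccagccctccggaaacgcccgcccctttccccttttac
Ap4e1: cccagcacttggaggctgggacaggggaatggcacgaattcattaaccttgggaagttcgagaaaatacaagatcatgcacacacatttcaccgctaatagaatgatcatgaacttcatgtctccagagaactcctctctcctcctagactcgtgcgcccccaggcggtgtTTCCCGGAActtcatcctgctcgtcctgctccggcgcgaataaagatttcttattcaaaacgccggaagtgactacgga
The Bcl6 windows held the element 118 bases upstream of the first start and 168, 122 and 88 bases upstream of the second. These windows lie well apart (chr16:23988803-23989102 and chr16:23981234-23981533 in GRCm38.p6). The site was listed at -149 bp from a single TSS, so the elements of both windows cannot all belong to it. The Ap4e1 window held it 79 bases upstream, and the Stat3 and Mcl1 windows did not hold these letters. Etv6, a repressor of the ETS family with a promoter site in CML-TKI only, carried the element 21 bases after its start. By its listed distance of -183 bp and its width the site lay upstream of the start, so the element was outside it.
Etv6 element with 10 bases on each side: agtttctctcTTCCAGGAAggaaaacatt
TTCNNNGAA is its own reverse complement, so a search of the printed strand covers both, and it includes the stricter TTCCNGGAA. Over all RefSeq promoter windows from 250 bases before to 50 bases after the start, 2582 of 27025 (9.55%) held TTCNNNGAA and 364 (1.35%) held TTCCNGGAA. Among genes with a site in that same window, a RefSeq window was found for 72 of 95 genes in CML-TKI only, 15 of 21 in both lists and 27 of 33 in CML only. The first 2 shares are under 80%, so a comparison of the sets is void for want of sequences. Among the genes that had a window, the element was found at 2 of 72 in CML-TKI only (Etv6 and Gm16675). It was found at 1 of 15 in both (Bcl6) and at 1 of 27 in CML only (Ap4e1). Bcl6, Ap4e1 and Etv6, shown above, are among these few, so the sequences shown overstate how common the element was. A match is a description of letters and not of a bound site.

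Some microRNA genes were named by sites. Mir142, a microRNA locus active throughout the blood lineage, had sites in CML-TKI only, the nearer at -1033 bp (chr11:87569184-87569483). Mir23a was named in CML-TKI only, at -3871 bp (chr8:86728467-86728625). Mir21a, which encodes a microRNA that STAT3 is known to induce, was named in both lists by a site at -40338 bp, while CML-TKI alone had a second, nearer one at -2416 bp (chr11:86399864-86400289, 425 bp wide). Mir30c-2 was named in CML only, 32799 bp downstream of its start. Their mature sequences from RefSeq are shown with the seed, bases 2 to 8, in capitals, since the seed sets which messenger RNAs a microRNA pairs with.
miR-142a-5p: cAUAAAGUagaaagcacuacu
miR-142a-3p: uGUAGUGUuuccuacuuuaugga
miR-23a-3p: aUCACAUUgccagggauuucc
miR-21a-5p: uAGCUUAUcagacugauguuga
miR-30c-5p: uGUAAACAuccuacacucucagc
The 5 seeds are all different. Of 1250 microRNA genes in the RefSeq table, 11 (0.880%) were named in CML-TKI only, 9 (0.720%) in CML only and 4 (0.320%) in both, all below the 1.84%, 1.08% and 0.836% of protein-coding genes. Within 1 kb of a start were the sites of Mir762, in CML-TKI only (-239 bp), and of the repeat-rich Mir101c locus (724 bp).

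The first comparison asked how many pSTAT3-Y705 sites the treated and the untreated leukemic cells had in common. The CML-TKI list was longer, with 2.37 times as many sites as the CML list. Of its 1510 sites, 896 (59.3%, exact 95% interval 56.8 to 61.8) overlapped no CML site by even 1 bp. Of the 637 CML sites, 298 (46.8%, 42.9 to 50.7) overlapped no CML-TKI site. Treatment was thus accompanied by a longer list, but not by a list that contained the untreated one. After overlapping sites of a list were merged, 753 of 1122 CML-TKI regions (67.1%, 64.3 to 69.9) and 298 of 626 CML regions (47.6%, 43.6 to 51.6) were absent from the other list, and the ratio of list lengths fell from 2.37 to 1.79. These intervals cover counting error over sites only. They treat overlapping sites as independent and are too narrow, more so for CML-TKI, where 698 sites overlapped another site of the list, against 22 in CML.

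Part of the overlap was an identity of ends. Of the 312 CML sites with full ends that overlapped a CML-TKI site with full ends, 241 (77.2%) had the very same start and end in both lists. Of these, 169 also overlapped a further CML-TKI site with other ends. Stat3 is an example. Its promoter site chr11:100800929-100801256 was listed for both, and CML-TKI also listed chr11:100800955-100801217 and chr11:100800955-100801173. The exact ends of a WT site were found for 207 CML-TKI sites, of which 162 were not among those with CML ends. By the study's methods the called peaks were merged within 100 bp and then merged again across the libraries. How far that step made the shared ends cannot be told apart from the deposited table. Of the 1011 CML-TKI sites whose ends matched neither a CML nor a WT site, 760 (75.2%) were absent from CML.

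The exclusive sites of each leukemic list were next compared with the WT list. Of the 896 sites in CML-TKI only, 284 (31.7%, 28.7 to 34.9) overlapped a WT site, while 612 were in CML-TKI alone of the 3 libraries. Of the 298 sites in CML only, 1 did (0.336%, 0.00850 to 1.86). That site was named for Arl4d, an ARF-like GTPase gene, at -6696 bp (chr11:101520041-101520278). Among sites present in both leukemic lists, 413 of 614 (67.3%, 63.4 to 71.0) as listed in CML-TKI were also in WT. Sites listed in treated but not in untreated leukemic cells were thus in part also listed in WT. Of the 520 WT sites with full ends, 499 overlapped a CML-TKI site. Sites in CML only overlap no CML-TKI site by definition, so few WT sites were left for them to match. Their low WT share was thus largely set in advance, and no difference between treated and untreated cells is read from it. Of the CML-TKI-only sites with full ends, 104 of 864 had the exact ends of a WT site, and the part of merging across libraries in this was not tested. Of the other 760, 150 (19.7%) overlapped a WT site. The intervals of the promoter share overlapped for treated sites with and without a WT counterpart, since 57 of the 284 (20.1%, 15.6 to 25.2) and 144 of the 612 (23.5%, 20.2 to 27.1) lay within 1 kb of a TSS.

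**Figure D1:**
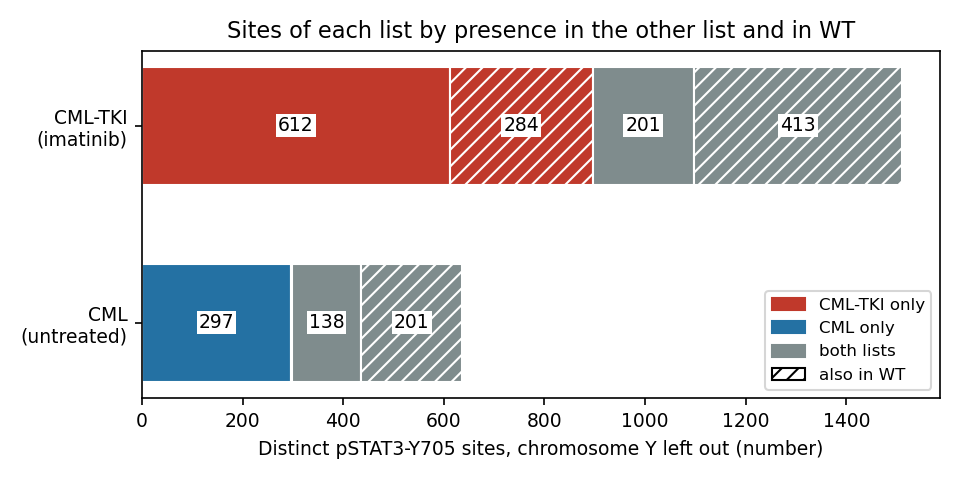
Distinct sites of each list (x axis, number), divided by presence in the other leukemic list (colour) and in WT (hatched). The CML-TKI bar holds 612 sites of its own, 284 shared with WT only and 614 shared with CML, whereas the CML bar holds 298 of its own, of which 1 was in WT.

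The second comparison asked where in the genome the sites lay. Sites found in a single leukemic list lay at promoters more often than shared ones. Within 1 kb of a TSS lay 201 of the 896 sites in CML-TKI only (22.4%, 19.7 to 25.3) and 87 of the 298 in CML only (29.2%, 24.1 to 34.7). Of the 614 sites in both, 57 (9.28%, 7.11 to 11.9) did so. The intervals of both exclusive sets lay above that of the shared set and overlapped each other. Within 5 kb the shares were 31.4%, 38.3% and 18.4%. Intergenic sites made up 50.6% of CML-TKI only, 46.6% of CML only and 62.1% of both, and introns held 23.9%, 22.8% and 25.1%.

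Shared sites lay more often in repeats. A repeat annotation was given for 57.2% of the sites in both lists, 40.4% in CML-TKI only and 28.5% in CML only. Satellite DNA, the tandem repeat of centromeric regions, accounted for 18.1% of shared sites, 3.68% of CML-TKI only and 0.671% of CML only. LTR retrotransposons held 18.0% of CML-TKI only, 15.8% of both and 10.7% of CML only, and LINE elements 7.25%, 5.70% and 8.39%. Reads from repeated sequence cannot be placed with certainty, so those positions are less sure than the others.

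A few repeat-rich loci carried much of the CML-TKI list. The 10 genes with most entries held 235 of the 614 shared CML-TKI sites (38.3%) and 170 of the 896 in CML-TKI only (19.0%), but 0 of the 298 in CML only. Vmn2r121, a vomeronasal receptor gene on X, was named by 103 sites in CML-TKI and 30 in CML. For Mir101c the numbers were 89 and 27, for Sfi1, a centrosome protein gene, 85 and 27, and for the pseudogene Pisd-ps3 42 and 4. Gm15319 had 18 and 6. In CML the fifth most named gene was Lrrc4c, a synaptic adhesion gene, with 5 sites. Without these 10 genes the promoter share was 27.1% in CML-TKI only, 29.2% in CML only and 14.2% in both, and the share in repeats 37.2%, 28.5% and 53.3%. By these shares the shared set kept its place against the others, while the 2 exclusive sets came closer. The satellite share of shared sites fell from 18.1% to 9.50%, with 2.48% in CML-TKI only and 0.671% in CML only. The LTR share was then 18.6% in CML-TKI only, 19.5% in both and 10.7% in CML only, so that the order of the first 2 turned.

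**Figure D2:**
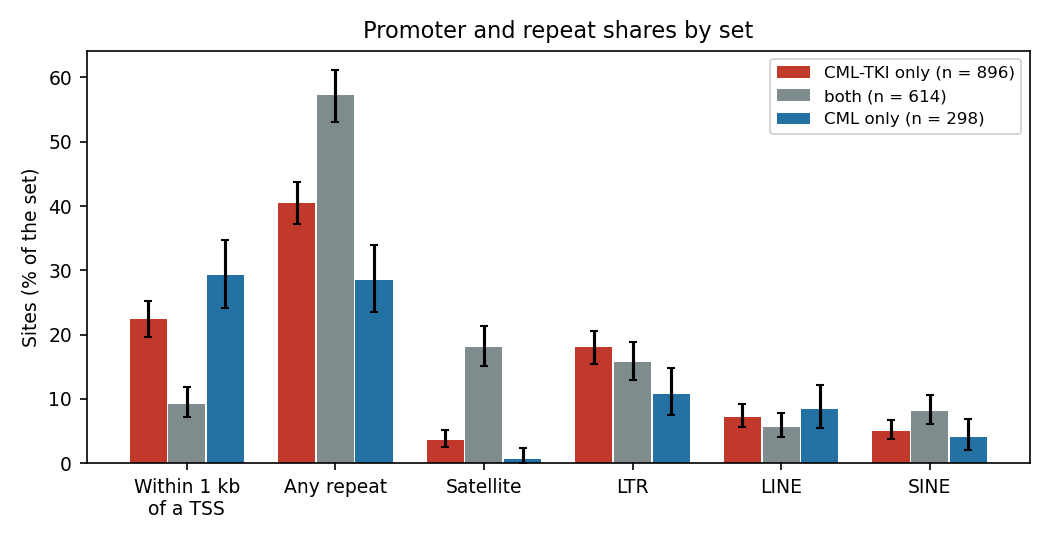
Percent of the sites of each set (y axis) that lay within 1 kb of a TSS or carried a repeat annotation, with exact 95% intervals over sites. Shared sites had the lowest promoter share (9.28%) and the highest satellite share (18.1%, or 9.50% without the 10 most listed genes), and the CML-only sites the reverse (29.2% and 0.671%).

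Widths followed the same division. Sites in CML-TKI only had a median width of 190 bp (quartiles 161 and 247), those in CML only 164 bp (143 and 190), and shared sites 272 bp (189 and 422) as listed in CML-TKI. A wider site meets another by 1 bp more easily, so the overlap rule in part set the greater width of shared sites in advance. Among sites of at least 200 bp, 28.7% of CML sites were absent from CML-TKI, against 46.8% of all. For CML-TKI sites absent from CML the shares were 58.5% and 59.3%. At 500 bp or more were 104 of the shared CML-TKI sites (18.9%), 29 of CML-TKI only (3.36%) and 4 of CML only (1.35%). The widest shared site lay in Rn45s, the ribosomal RNA unit (chr17:39979976-39983768, 3792 bp). The widest in CML-TKI only lay at Sfi1 (1036 bp), followed by others at Sfi1, Zfp930 (chr8:71751876-71752789, 913 bp) and Slc7a15. In CML only the widest was at H3f3b, which encodes histone H3.3 (chr11:115885088-115885756, 668 bp). At shared places CML-TKI often listed the CML ends beside its own, so widths were compared where it had a site with ends of its own. This held for 207 of 328 shared CML sites. The widest such CML-TKI site was wider than the CML site at 155 and narrower at 52, with a median ratio of 1.22 (quartiles 0.998 and 1.58). Taking the widest site favours CML-TKI, which listed more sites per place.

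Close to the TSS, the sites of all 3 sets gathered around the start. Of the 201 promoter sites in CML-TKI only, 145 (72.1%) lay within 250 bp of the TSS and 127 (63.2%) upstream of it. Of the 57 shared promoter sites 47 (82.5%) lay within 250 bp and 34 (59.6%) upstream. Of the 87 in CML only, 55 (63.2%) lay within 250 bp and 44 (50.6%) upstream.

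**Figure D3:**
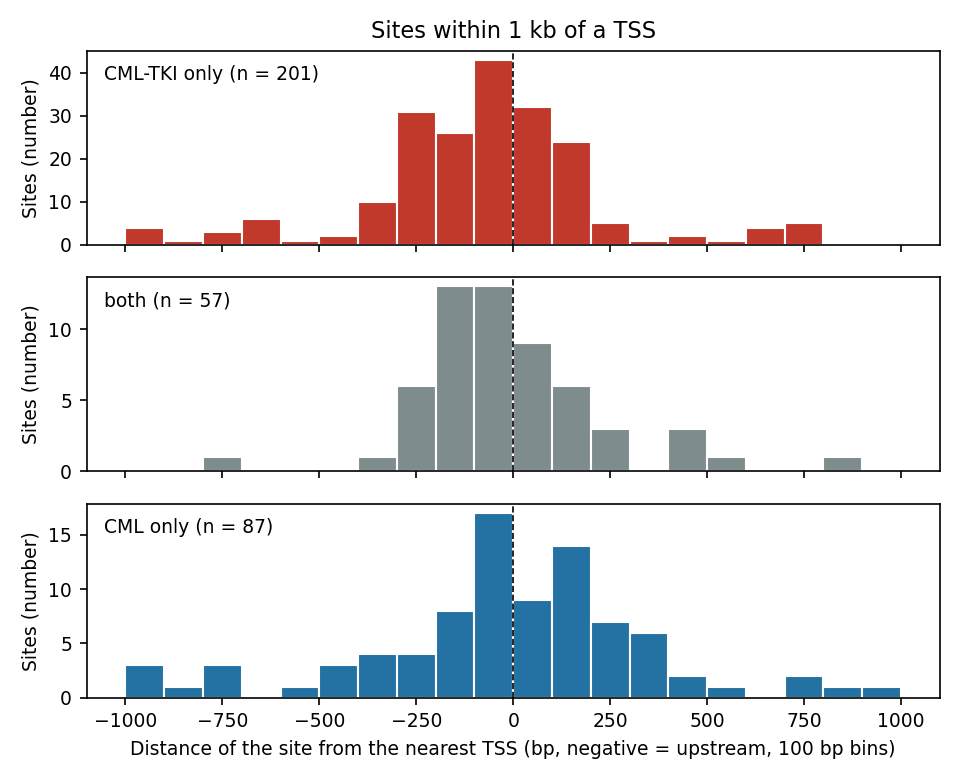
Number of sites (y axis) by distance to the nearest TSS (x axis, bp, 100 bp bins, negative values upstream) for promoter sites in CML-TKI only (n = 201), both lists as listed in CML-TKI (n = 57) and CML only (n = 87). The y axes differ. All sets peak near the TSS, with 127 of 201, 34 of 57 and 44 of 87 sites upstream.

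The third comparison asked which genes were named in treated and untreated cells. CML-TKI sites named 678 genes and CML sites 490, with 214 in common. In CML-TKI only were 464 (68.4%, 64.8 to 71.9), and in CML only 276 (56.3%, 51.8 to 60.8). Of 21900 protein-coding genes, 402 (1.84%) were named in CML-TKI only, 236 (1.08%) in CML only and 183 (0.836%) in both. By promoter sites alone, 165 (0.753%) had one in CML-TKI only, 80 (0.365%) in CML only and 31 (0.142%) in both. Most genes of an exclusive set rested on 1 site (378 of 464 and 270 of 276).

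Of the genes in common, 202 shared a site and 12 were named by different sites. Brd2, which encodes a BET protein that reads acetylated histones, was the only gene with a promoter site absent from the other list on each side. Its CML site lay 122 bp downstream of the TSS (chr17:34256656-34256791) and its CML-TKI site 750 bp downstream (chr17:34255996-34256195). For Atf7ip, a cofactor of the SETDB1 histone methyltransferase, the CML site lay at -260 bp and the CML-TKI site at -50187 bp.

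Among genes of the pathway itself, Stat3 and Jak3 had promoter sites in both lists. Stat3 had the sites given above, -267 bp from the TSS in the pair with shared ends and -239 and -284 bp in the others, and none was in WT. Jak3, the kinase of common gamma chain receptors, had a site in the 5' UTR with the same ends in both lists (chr8:74200350-74200496, 141 bp). Csf2ra, the GM-CSF receptor alpha chain, was named in both by distal sites, the nearest at -35803 bp. Stat5b, in an intron (chr11:100698846-100699004), and Il10rb, an interleukin-10 receptor chain, were named in CML only. Of 60 JAK-STAT genes, 3 were thus in both and 2 in CML only, and no promoter site of theirs was exclusive to a list.

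Of 45 classical STAT3 targets, 4 were in both lists, 3 in CML-TKI only and 1 in CML only. Bcl6 had its promoter site in both (chr16:23988744-23988984, with a wider one at chr16:23988658-23989037 in CML-TKI), and Ccnd3, the cyclin D3 gene, an intronic one. The Mcl1 site lay on the TSS (chr3:95462507-95462801, 11 bp). Nfkbiz, which encodes the nuclear inhibitor IkappaBzeta, had a promoter site in CML-TKI only (chr16:55822359-55822614, -235 bp). Junb, an AP-1 subunit, was also in CML-TKI only, by a site at its transcript end and not at its promoter. Neither Mcl1, Nfkbiz nor Junb was in WT. Myc, the growth-promoting transcription factor, had a site in CML only (chr15:61817061-61817348, 308 bp). The share in CML-TKI only was 6.67%, beside 1.84% of protein-coding genes.

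Genes of MAPK and RAS signaling were the list with most members in CML-TKI only, together with chromatin regulators. Of 84, 6 were in CML-TKI only (7.14%), 2 in CML only (2.38%) and 4 in both (4.76%). Of protein-coding genes 1.84%, 1.08% and 0.836% were in these sets. The ranking is by number of genes. By share, the stem cell regulators below stood higher in CML-TKI only (8.89%). Map2k2, which encodes the kinase MEK2 (chr10:80568805-80568962, 191 bp), and Sos2, an exchange factor that activates RAS (chr12:70781922-70782192, 782 bp), had promoter sites in CML-TKI only. Jund, Junb, Rps6ka1 and Spry4 were named from farther away. In CML only, Mapk6, an atypical MAP kinase (chr9:75257720-75257900, 13 bp), and Rasa1, a RAS GTPase-activating protein (chr13:85428818-85429037, 164 bp), had promoter sites. The early-response genes Jun (chr4:94718189-94718451, 593 bp) and Dusp1, a MAP kinase phosphatase (chr17:26645121-26645319, 197 bp), had sites with the same ends in both lists, and Dusp1 a further one in CML-TKI only at 391 bp.

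Chromatin regulators had 6 of 108 members in CML-TKI only (5.56%), 3 in CML only (2.78%) and 1 in both, Brd2. Promoter sites in CML-TKI only lay at Kmt2a, the histone H3K4 methyltransferase gene MLL1 (chr9:44689456-44689673, -207 bp), Kmt2d, a related enzyme (chr15:98702463-98702685, -938 bp), and Kdm5a, an H3K4 demethylase (chr6:120314127-120314364, 128 bp). Others lay at Sirt6, a deacetylase (chr10:81090173-81090376, 79 bp), and Arid1b, a SWI/SNF subunit (chr17:4994347-4994506, -648 bp). The Kdm5a and Arid1b sites were also in WT. The Kdm5a site overlapped the one named for the neighbouring Ccdc77 (chr6:120314199-120314550, 13 bp). The members in CML only, Chd2, Ring1 and Tet2, had no promoter site, the nearest being an intronic site of Chd2, a chromatin remodeler, at 3589 bp.

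Histone genes named by a site were in CML only, 6 of the 88 that the RefSeq table holds under a current or older symbol (6.82%), beside 0.365% of protein-coding genes with a promoter site in CML only. Sites lay within 1 kb of the TSS of H3f3a (709 bp), H3f3b (396 bp), Hist1h2ac (chr13:23774971-23775487, 599 bp), Hist1h2bc (chr13:23776392-23776600, 428 bp), Hist1h2bg (chr13:23663626-23663876, 482 bp) and Hist1h3a (chr13:23854041-23854175, 147 bp). These 6 genes had no CML-TKI and no WT site. All 6 sites lay downstream of the TSS. The histone genes of the Hist1 cluster lie close together and share sequence, so the 4 are not independent of each other.

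In the regulators of hematopoietic stem cells, 4 of 45 genes were in CML-TKI only, 0 in CML only and 2 in both. Etv6 had a promoter site (chr6:133985423-133985661, -183 bp) that was not in WT, and a second, intronic site that was. Gata2, a transcription factor needed by stem cells, was named at -9003 bp (chr6:88139545-88139766). Runx1, a core hematopoietic factor (intron, chr16:92715827-92715984), and Slamf1, the CD150 antigen (-42478 bp), were in CML-TKI and WT. Kit, the receptor used in the LSK gate, was named in both leukemic lists and WT from 155735 bp away.

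Metabolic and nutrient-sensing lists had few named genes, 3 of 52, 2 of 31 and 2 of 35 in CML-TKI only for AMPK and mTOR, the TCA cycle and glycolysis (5.77%, 6.45% and 5.71%, beside 1.84% of protein-coding genes), and 0 of each in CML only (beside 1.08%). Of the 52 AMPK and mTOR genes, Tsc1, a repressor of mTORC1 (chr2:28496590-28496805, -56 bp), Lipe, the hormone-sensitive lipase gene (chr7:26181304-26181450, -371 bp), and Igf1r (-1034 bp) were in CML-TKI only, and none was in WT. Ddit4, Eef2, Pik3r1 and Prkag1 were in both, and 0 in CML only. Suclg1, a succinyl-CoA ligase subunit of the TCA cycle, had a site on its TSS (chr6:73198371-73198633, 3 bp), and Pgam1, a glycolytic mutase, a promoter site that was also in WT (chr19:41985848-41986102, -386 bp), both in CML-TKI only. Slc16a1, the monocarboxylate transporter gene, and Pdhx, of the pyruvate dehydrogenase complex, were named from 62465 bp and 60562 bp away. Oxidative phosphorylation had 1 of 72 in each set (1.39%). Atp5l, an ATP synthase subunit, had a promoter site in CML only (chr9:44729131-44729337, -409 bp). Of the cytochrome oxidase subunit genes, Cox7a2 had a promoter site in both lists (95 bp). Cox7c was named in CML-TKI only, from 356157 bp away. Pkm, Cs and Cpt1b were named by no site, nor was any gene of the fatty acid oxidation (30 genes) and pentose phosphate (12 genes) lists. The paper, from a far larger set of sites, describes STAT3 at CPT1B and citrate synthase. It also lists the pentose phosphate pathway among those enriched after imatinib. Absence from the shorter deposited list is thus not absence of binding.

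Of 48 apoptosis genes, Mcl1, Birc6, an inhibitor of apoptosis (chr17:74927644-74927847, 110 bp), and Pmaip1, which encodes NOXA, were in CML-TKI only (6.25%, beside 1.84% of protein-coding genes), and 0 in CML only or both. Of 86 cell cycle genes, Ccng2, an atypical cyclin (chr5:93696342-93696599, -129 bp), and Fbxw7, a ubiquitin ligase subunit (-1177 bp), were in CML-TKI only and Cdk6 in CML only, at -244001 bp. Their shares (2.33% and 1.16%) were near those of all protein-coding genes (1.84% and 1.08%). Plk1, a mitotic kinase, had a promoter site in both (chr7:129302856-129303108 in CML, 31 bp).

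Of 108 cytokine, chemokine and receptor genes, 3 were in CML-TKI only (2.78%), 1 (Il10rb) in CML only (0.926%) and 3 in both (2.78%). The first 2 shares were near those of all protein-coding genes (1.84% and 1.08%), and 0.836% of protein-coding genes were in both. The chemokine gene Ccl9 had an intronic site in CML-TKI only (chr11:83390652-83391025, 1300 bp), Cxcl1, a neutrophil chemoattractant, was named there at -9101 bp, and Cx3cr1, the fractalkine receptor, at 9312 bp. In cAMP and PKA signaling 3 of 45 genes were in CML-TKI only (6.67%) and 1 in CML only (2.22%). The phosphodiesterase gene Pde7b alone had a promoter site (127 bp, CML-TKI only). Of 97 hedgehog, Wnt and TGF-beta genes, Hhat and Inhba were in CML-TKI only (2.06%), Axin2 and Tgfbr2 in both (2.06%) and 0 in CML only. None had a site within 1 kb of a TSS. The share in CML-TKI only was near the 1.84% of protein-coding genes.

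In protein synthesis the lists were nearly even. Of 115 genes, Eif4a2, a translation initiation helicase (chr16:23107482-23107767, 83 bp), and Rplp1 were in CML-TKI only, Rpl3, a ribosomal protein (chr15:79913738-79913885, 25 bp), Rpl26 and Eif5 in CML only, and Eef1a1, Eef2 and Rps29 in both. Neuronal genes, which blood cells do not need, had 0 of 40 in CML-TKI only, 2 in CML only and 3 in both, all without a promoter site. Their shares in CML only and in both were above those of all protein-coding genes (1.08% and 0.836%). In CML only the neuronal share was also above that of the classical STAT3 targets (2.22%), and in both it was below theirs (8.89%). A share above that of protein-coding genes was thus not confined to lists with a role in blood cells. Of 25 liver genes 0 were named. Across all 19 lists, 41 of 1079 genes (3.80%) were in CML-TKI only, 16 (1.48%) in CML only and 26 (2.41%) in both, beside 1.84%, 1.08% and 0.836% of protein-coding genes.

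**Figure D4:**
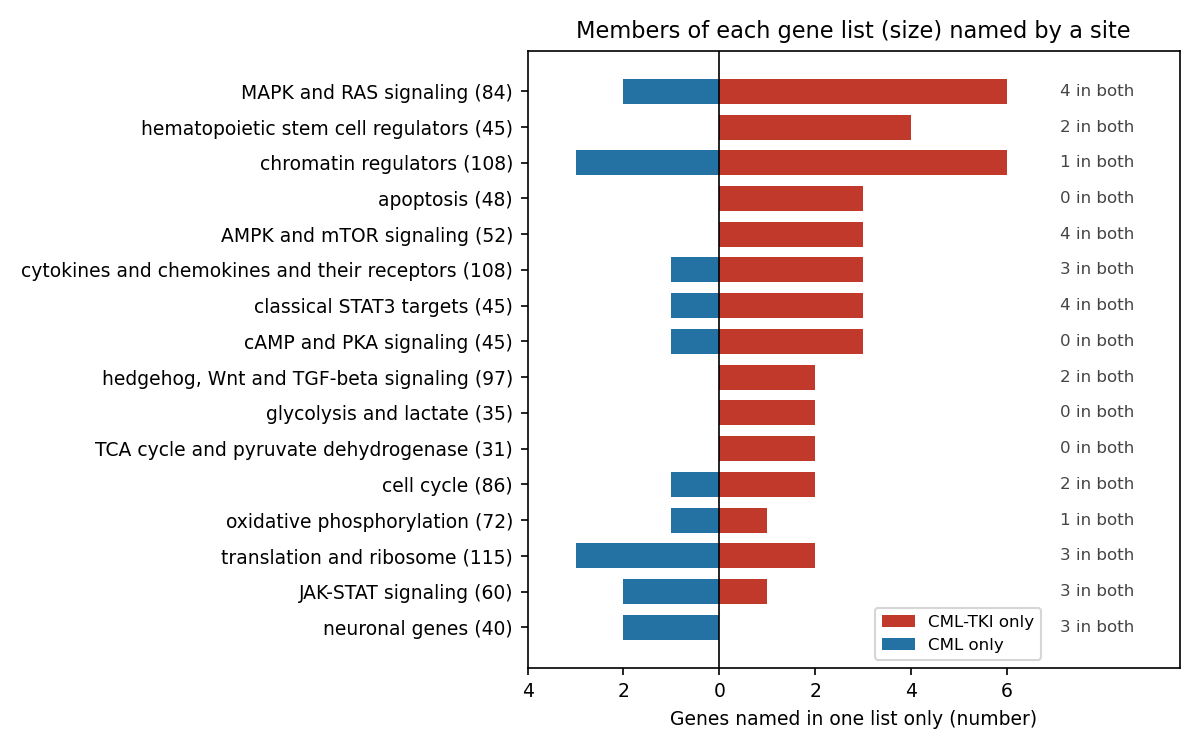
Number of genes of each list (list size in parentheses) named in CML-TKI only (right) or CML only (left), with the number in both at the right edge. MAPK and RAS signaling and chromatin regulators had 6 members in CML-TKI only, and translation and ribosome and chromatin regulators had 3 in CML only. The numbers are not scaled by list size, and lists with no named gene are left out.

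The sites nearest to a TSS named genes of varied roles. In CML-TKI only the closest were those of Scp2, a peroxisomal sterol carrier and thiolase (chr4:107790988-107791321, -2 bp), Suclg1 (3 bp), Rbm25, a splicing regulator (4 bp, also in WT), Psmd3, a proteasome subunit (chr11:98543782-98543935, -10 bp), and Mcl1 (11 bp). Nlrp3, the inflammasome sensor (chr11:59356125-59356276, 12 bp), and Plek, the pleckstrin of platelets and myeloid cells (chr11:16908633-16908777, 16 bp), followed. In CML only the closest were Mfsd8, a lysosomal transporter (chr3:40650683-40650871, -1 bp), Eif1ad (-3 bp), Ddx20, an RNA helicase of the SMN complex (chr3:105490427-105490570, -9 bp), Nhlrc2 (10 bp) and Mapk6 (13 bp). In both lists they were Vmn2r29 (-7 bp), Cdkn2aipnl (-8 bp) and Nsfl1c (16 bp).

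The genes in the rest of this paragraph were picked once their values had been seen. They are single examples. Where some are named together by role, the other genes of that role were not counted, so no contrast between the lists is read from them. Promoter sites in CML-TKI only lay at Tnfaip3, the NF-kappaB inhibitor A20 (chr10:18735165-18735429, -81 bp), Trib1, a pseudokinase (chr15:59480063-59480296, -30 bp), and Klf2 (chr8:74842931-74843134, 71 bp), a transcription factor gene. Of these the Klf2 site was also in WT. Cd47, the antigen that restrains phagocytosis (chr16:49855201-49855577, -378 bp), and Abcg2, the drug efflux pump of stem cells (chr6:58546768-58546962, 199 bp), had promoter sites in CML-TKI only and not in WT. In CML only, promoter sites lay at the chaperone genes Hsp90aa1 (chr12:111934280-111934481, 225 bp) and Hspa8 (chr9:40609426-40609652, 183 bp). Calr, which encodes a chaperone of the endoplasmic reticulum, had one in CML-TKI only (chr8:87371646-87371817, -901 bp). Among splicing genes, sites lay at Srsf7 (56 bp), Hnrnpa2b1 (150 bp), Hnrnpf (206 bp) and Snrpb (97 bp) in CML-TKI only and Rbm39 (14 bp), Clk4 (117 bp), Tra2b (344 bp) and Snrpd3 (-233 bp) in CML only. The abundant nuclear RNAs Malat1 and Neat1, the ubiquitin gene Ubb, and the stress factor Atf4 had promoter sites in both lists.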

How the data were processed

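Binding was measured by chromatin immunoprecipitation of pSTAT3-Y705 and sequencing. The input sample, whose antibody label is IgG, was not analysed here. By the study's methods, duplicates and adapters were removed, reads were aligned to mm10 with bwa mem, and peaks were called with MACS2, HOMER, Genrich and SICER2, merged and annotated with HOMER. The submitters' processing notes also name Partek 8.0 and both mm9 and mm10. Full site ends passed the GRCm38 length on 6 chromosomes, so positions were taken as mm9, and no sequence was read by position.

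Per the file headers, each deposited entry has a position, a region class, a repeat, a nearest gene and a distance to the TSS. Both ends of 649 entries of the series are whole Mb (all at 100 Mb or beyond). Such an entry was identified by its RefSeq accession and distance, dropped where the list had that pair with full ends, and matched to the other list within 200 bp of distance. Identical entries (up to 4) were counted once. Overlap was at least 1 bp, a promoter site lay at most 1 kb from a TSS, and shares have exact Clopper-Pearson 95% intervals. Entries named Pdk1 carried the identifier of another gene, Fam47c, and were left out of the gene lists. Names matched the GRCm38 RefSeq table for 463 of 464, 276 of 276 and 212 of 214 genes in CML-TKI only, CML only and both.

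Gene lists hold textbook members. The comparison, members and lists were chosen with earlier results of these data known. Named genes were list members, the 15 protein-coding genes nearest a TSS and 5 widest sites of each set, the 5 genes with most sites in each list, Stat3, Pkm, Cs and Cpt1b, and the microRNAs. Others are said to be chosen after their values were seen. Some genes that the rule selects are not reported here. The alternatives were other overlap rules, merged regions, sites of at least 200 bp, full ends only, chromosome Y included, the 10 most listed genes left out and a promoter of 5 kb. The overlap step found all 200 simulated overlaps among 500 simulated sites. The work used matplotlib 3.10.9 for plots and scipy 1.17.1 for intervals, with pandas 2.3.3 and numpy 2.4.6 under Python 3.11.15.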

Additional observations from a re-analysis of the deposited data

Results flagged for a closer look

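Chromosome Y was left out of every count above. It held 247 distinct CML-TKI sites, 78 CML sites and 168 WT sites, or 116, 78 and 69 regions after merging. The CML-TKI number lay above that of WT. The labels do not give the sex of the animals of each library, and Y sequence is highly repeated, so the part of either in these numbers was not tested.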

How the results depend on the processing

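Of 88 alternative values, 60 stayed within counting error or within 1.5 times of the main count, and 28 moved. None of the 28 turned a direction. No paired analysis was possible because the lists carry no replicates, with 1 library a side. Leaving out a replicate was not possible for the same reason.

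The share of CML-TKI sites absent from CML was 55.0% with chromosome Y, 61.9% with full ends only, 67.1% after merging, 79.4% when the same ends were required, 52.2% within 1 kb and 65.7% without the 10 most listed genes. That of CML sites absent from CML-TKI was 41.7% with chromosome Y, 51.2% when the same ends were required, 28.7% at 200 bp or wider and 55.9% without the most listed genes. Sites of at least 200 bp numbered 767 in CML-TKI and 244 in CML. The share within 5 kb of a TSS was 31.4% in CML-TKI only, 38.3% in CML only and 18.4% in both, and without the most listed genes the share within 1 kb was 27.1% in CML-TKI only and 14.2% in both. Intergenic sites made up 54.2% of CML-TKI only and 70.5% of both with chromosome Y, and 57.8% of both without the most listed genes. The median width of shared CML-TKI sites was 289 bp with chromosome Y and 228 bp without those genes. By promoter sites alone, genes numbered 174 in CML-TKI only, 86 in CML only and 35 in both, and within 5 kb of a TSS list members numbered 24 in CML-TKI only and 7 in CML only. With sites matched within 1 kb, 0% of those in CML only were in WT. For none of these moves was the cause tested, except that a narrower rule keeps fewer sites by construction. The table holds no read counts, so depth sets a limit that cannot be given.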

Other observations

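The share of CML-TKI sites that were absent from CML differed along the genome. It was lowest on chromosomes 9 (38.9% of 157 sites) and 15 (40.0% of 40) and highest on chromosome 14 (79.5% of 39). Chromosomes 9, 11 and X, which hold Mir101c, Sfi1 and Vmn2r121, carried the most CML-TKI sites (157, 199 and 160). On chromosome 13, which holds the Hist1 genes, 23 sites were in CML-TKI only and 23 in CML only, the lowest ratio of the chromosomes.

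Zinc finger (Zfp) genes, many of which encode KRAB repressors of retroelements, and here taken by their symbol, numbered 14 in CML-TKI only, 9 in CML only and 11 in both (2.83%, 1.82% and 2.23% of 494, beside 1.84%, 1.08% and 0.836% of protein-coding genes). Zfp960 had the most sites of any gene in CML-TKI only, 6, of which 4 were also in WT, the nearest 23451 bp from its TSS. Tmem132b, with 3 sites, had the most in CML only.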
